A study of Homo sapiens with 4 samples.

Results

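SNAIL1-HA peaks in the interior of chromosomes 3, 4, 5, 13 and 18 were described, with attention to how strong, how shared and how far apart they were. A peak belonged to this set when it was listed for induced cells and its summit lay more than 5 Mb from either end of 1 of these 5 chromosomes. The rule held for 93 of the 823 peaks of the first induced library (induced 1) and for 151 of the 1338 peaks of the second (induced 2), 11.3% of each list. Overlapping peaks of both lists were merged, which gave 171 interior sites of 1499 in all.

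The cells were LS174T, an established colorectal adenocarcinoma line, carrying murine SNAIL1 fused to a hemagglutinin (HA) epitope under doxycycline control. Induced cells (2 libraries) received 0.1 mg/ml doxycycline for 6 h, and uninduced cells (2 libraries) of the same engineered line received none. Chromatin was precipitated with an anti-HA antibody in all 4. The labels do not say whether the line is 1 clone or whether both libraries of a condition came from separate cultures. Differences between them may therefore be technical.

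SNAIL1 is a zinc-finger transcription factor that binds E-box motifs and recruits co-repressor complexes. It is best known for silencing epithelial genes, such as the one for E-cadherin, during epithelial-mesenchymal transition, when epithelial cells loosen their junctions and become motile. Genes are spread unevenly over human chromosomes, and long gene-poor stretches alternate with gene-dense bands. The peaks have hg19 coordinates. No hg19 gene annotation or sequence was used here, so the sites are given by position, and neither their nearest genes nor their motifs are reported.

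The name gene-poor held for 3 of the 5 chromosomes more clearly than for the rest. In the RefSeq gene table (GRCh38.p14) with hg19 chromosome lengths, chromosome 13 had 2.93 protein-coding genes per Mb, chromosome 18 had 3.46 and chromosome 4 had 4.03, the 3 lowest values among the 22 autosomes and X. Chromosome 5 had 5.00 genes per Mb and chromosome 3 had 5.38, and chromosomes 8 (4.89) and 21 (4.97) were below both. Over the 5 chromosomes together the density was 4.39 genes per Mb, against 7.45 over the 17 other autosomes.

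Interior peaks were fewer per length on these chromosomes than over the 17 other autosomes pooled. Induced 1 held 1.30 peaks per 10 Mb of interior (95% Poisson interval 1.05 to 1.60), against 2.27 (2.07 to 2.50) in the interior of the 17 other autosomes. Induced 2 held 2.12 (1.79 to 2.48), against 3.87 (3.59 to 4.15). Among the 17, values ran from 1.13 (chromosome 14) to 7.53 (chromosome 19) in induced 1. In induced 2 they ran from 2.27 (chromosome 8) to 9.97 (chromosome 19). Chromosomes 4 (1.60), 5 (1.70) and 18 (1.62) lay within the range of induced 1, with chromosomes 3 (1.01) and 13 (0.475) below it. In induced 2, chromosomes 3 (2.39) and 4 (2.32) lay within it, with chromosomes 5 (2.11), 13 (1.24) and 18 (2.20) below. Chromosome X held 0.069 in each library. The 5 interiors made up 26.8% of the autosomal interior but held 17.4% of its peaks in induced 1 (exact binomial interval 14.2 to 20.8) and 16.7% in induced 2 (14.3 to 19.3). Poisson and binomial intervals here and below cover counting error only, and overlapping intervals do not show that values are equal.

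Peaks were then counted per gene and per length over whole chromosomes, since gene positions of hg19 were not used here. Per length, the 5 chromosomes held 1.74 peaks per 10 Mb in induced 1 (1.46 to 2.06) and the other 17 held 3.24 (3.01 to 3.496), and the values in induced 2 were 2.84 (2.48 to 3.25) and 5.28 (4.98 to 5.603). Per gene, the 5 chromosomes held 3.97 peaks per 100 protein-coding genes in induced 1 (3.33 to 4.71) and the other 17 held 4.35 (4.03 to 4.69). The values in induced 2 were 6.48 (5.65 to 7.40) and 7.09 (6.68 to 7.52). The intervals per gene overlapped in both libraries, while those per length did not. The direction per gene rested on chromosome 3. Without it, which was a choice made after the data were seen, the other 4 held 4.86 peaks per 100 genes in induced 1 (4.001 to 5.86) and 7.27 in induced 2 (6.21 to 8.47), both above the 17 other autosomes with overlapping intervals. The 5 chromosomes carried 17.5% of autosomal protein-coding genes, and 16.2% of the autosomal peaks of each induced list. Across the 22 autosomes, peaks per Mb ranked with genes per Mb, with a Spearman's rho of 0.67 in induced 1 and 0.81 in induced 2. The points of each rho share 1 library, so it is a description.

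**Figure D1:**
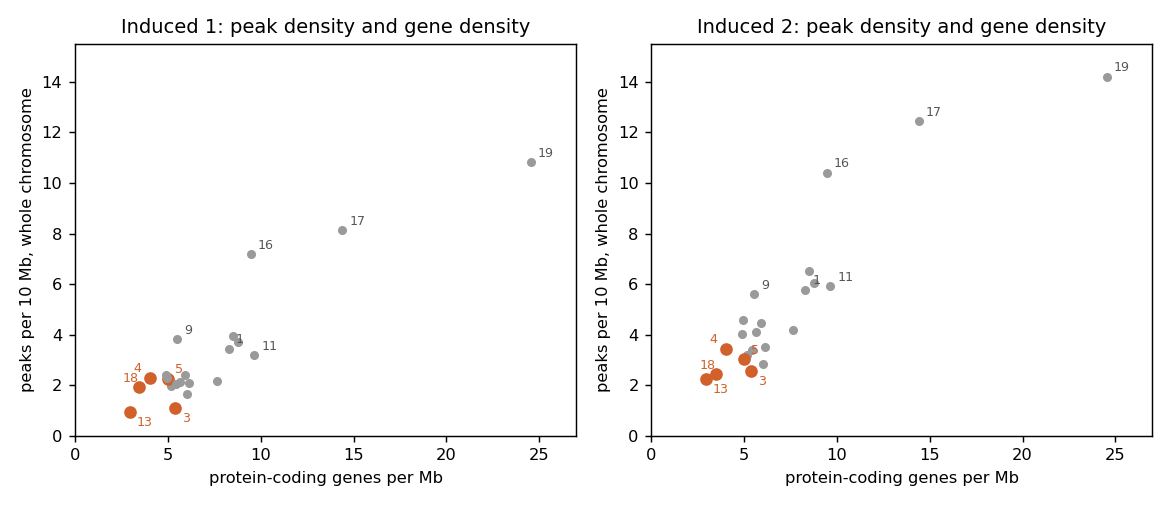
Peaks per 10 Mb of whole chromosome (y axis) against protein-coding genes per Mb (x axis) for the 22 autosomes, 1 panel per induced library. The 5 chromosomes described here are in orange. These 5 lie at the left of both panels, and chromosomes 13 and 3 are the lowest points for induced 1.

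Chromosome 3 was the least even between the libraries among the 3 larger chromosomes. Induced 1 had 19 interior peaks there and induced 2 had 45, so 70.3% of its peaks were in induced 2 (57.6 to 81.1), against 61.9% (55.5 to 68.0) over all 5 interiors. Over the interiors of the 17 other autosomes that share was 63.0% (60.2 to 65.7), from 56.6% on chromosome 16 to 73.8% on chromosome 14. Chromosome 3 lay within that range. The second list was 1.63 times as long as the first over the whole genome and 1.62 times over the 5 interiors. Per 100 genes, chromosome 3 held 2.06 peaks in induced 1 (1.29 to 3.12), below the interval of the 17 other autosomes, and 4.78 in induced 2 (3.56 to 6.29). Chromosome 4 held 5.71 and 8.57 per 100 genes, chromosome 5 held 4.54 and 6.08, chromosome 13 held 3.25 and 7.69, and chromosome 18 held 5.56 and 7.04. Chromosome 13 had 5 and 13 interior peaks, the lowest density of the 5 in each library at 0.475 and 1.24 per 10 Mb. Chromosome 4 had 29 and 42 peaks, chromosome 5 had 29 and 36, and chromosome 18 had 11 and 15. The intervals of these shares overlap that over all 5 interiors, and no test was made of the differences between chromosomes.

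Sites were unevenly placed within each chromosome. On chromosome 5 the short arm held 2 sites in 41.4 Mb of interior and the long arm held 40 in 127 Mb, which is 0.483 against 3.16 sites per 10 Mb. Chromosome 3 was denser on its short arm, with 28 sites at 3.27 per 10 Mb, than on its long arm, with 22 sites at 2.21. The short arm of chromosome 13, which is largely without assembled unique sequence, held none. Of 67 windows of 10 Mb, 15 held no site and 29 held no shared site, and the median was 2 sites. Only whole windows were counted, so interior sites near the edges of the interior fell outside them. The empty windows included chromosome 3 from 90000001, chromosome 5 from 40000001 and chromosome 13 from 10000001, which contain centromeres. Windows of the other autosomes were not counted. The fullest window was chromosome 3 from 40000001 to 50000000, with 14 sites, of which 2 were shared. The next were chromosome 4 from 120000001 to 130000000, with 8 sites of which 4 were shared, and chromosome 13 from 20000001 to 30000000, with 7 of which 2 were shared.

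Sparse placement did not go with low enrichment. Fold is the authors' value for each peak, the summit signal over the local background. The median fold of interior peaks was 5.64 in induced 1 (range 3.13 to 13.8), against 5.33 over the whole list, and 5.05 in induced 2 (2.86 to 16.999), against 4.91. A fold of at least 5 was reached by 62 of 93 peaks in induced 1, which is 66.7% (56.1 to 76.1) against 59.1% of the whole list. In induced 2 it was reached by 78 of 151, which is 51.7% (43.4 to 59.9) against 48.3%. Both intervals include the share of the whole list. Among the 50 highest folds of each list, 5 of induced 1 and 6 of induced 2 were interior peaks of these chromosomes. These are 10% and 12%, close to the 11.3% that interior peaks made up of each whole list.

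Read numbers at the summits, recovered from the deposited fold and p, were also close to those elsewhere. The median summit was covered by 50 reads in induced 1 and 34 in induced 2, against 51 and 35 over the whole lists. Pileups and backgrounds of induced 1 are given before a scaling down by 1.40. This factor was inferred from its listed values, as the one that makes its pileups whole numbers, and is not stated in the sources used here. Local backgrounds had a median of 7.73 reads in induced 1 and 5.88 in induced 2, against 8.40 and 6.33 over the whole lists, and reached at most 12.6 and 12.7 at any interior peak. The median width was 327 bp in induced 1 and 328 bp in induced 2. By chromosome, median folds ran from 5.19 on chromosome 4 to 6.16 on chromosome 13 in induced 1, and from 4.74 on chromosome 4 to 6.02 on chromosome 18 in induced 2. The ranges of the 5 chromosomes overlapped widely in both libraries.

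**Figure D2:**
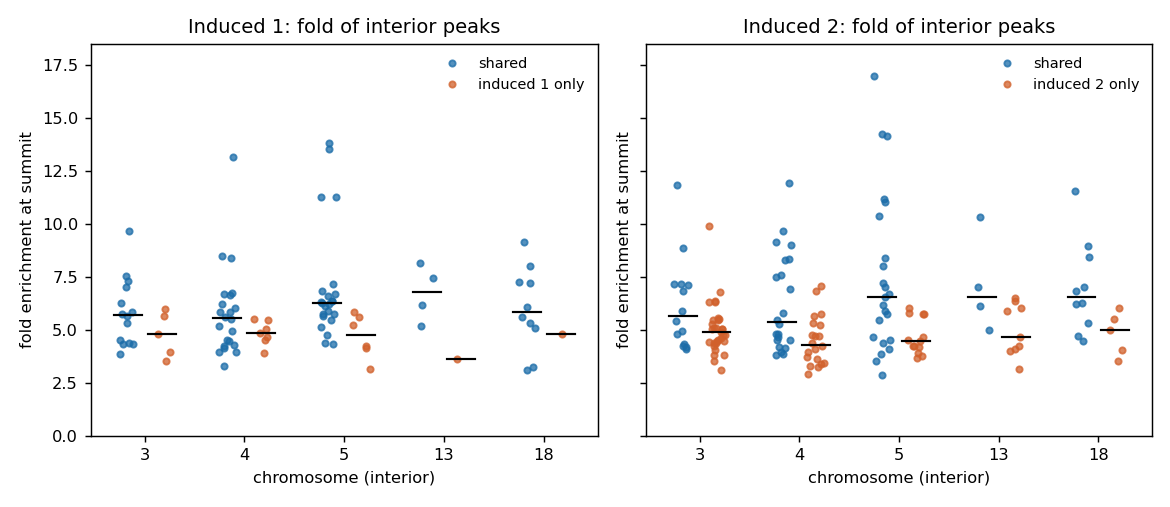
Fold enrichment at the summit (y axis) of every interior peak on chromosomes 3, 4, 5, 13 and 18, for induced 1 (left) and induced 2 (right). Blue points are peaks shared between the induced lists, orange points are peaks of that list only, and black bars are medians. The highest folds are on chromosomes 4 and 5, and in induced 1 no peak found in that list alone exceeded 5.99.

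Of the 15 interior sites shared between the libraries with the highest mean percentile of fold, chromosome 5 supplied 6, chromosome 3 supplied 4, chromosome 4 supplied 3, and chromosomes 13 and 18 supplied 1 each. Of all 73 shared interior sites, chromosome 5 held 23, chromosome 3 held 14, chromosome 4 held 22, chromosome 13 held 4 and chromosome 18 held 10. At the 15 sites the summits of the libraries lay 4 to 51 bp apart. Of the 15, 9 lay more than 1 Mb from any other site, against 34 of all 73 shared interior sites. The first of the 15, on chromosome 5 from 95997905 to 95998607, was enriched 13.8-fold in induced 1, against 14.1-fold in induced 2. At its summit lay 101 reads (95% Poisson interval 82.3 to 123) and 109 reads (89.5 to 132) in turn. It ranked 13th of 823 and 23rd of 1338 peaks by fold.

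The second, on chromosome 5 from 89854450 to 89855028, had the most summit reads of the interior sites. It had 150 reads (127 to 176) at 13.5-fold in induced 1 and 129 reads (108 to 153) at 14.2-fold in induced 2. Its nearest neighbour was 3.94 Mb away, so it combined high enrichment with isolation. The third, on chromosome 4 from 71024232 to 71024715, had 13.2-fold and 12.0-fold enrichment with 96 and 65 reads, and lay 0.837 Mb from the next site. The fourth, on chromosome 5 from 119704963 to 119705460, was enriched 11.3-fold in induced 1 but 16.999-fold in induced 2, with 82 and 89 reads. Its local background was at or near the genome-wide one of each library, 6.00 of 6.00 reads in induced 1 and 4.29 against 4.15 in induced 2. The fifth, on chromosome 5 from 150162955 to 150163390, had 11.3-fold and 11.1-fold enrichment with 113 and 90 reads.

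At the other 10 of these sites, fold ran from 6.86 up to 9.65 in induced 1 and from 7.004 up to 11.9 in induced 2. Chromosome 4 supplied the site at 129732293 to 129732707, with 8.50-fold and 9.65-fold enrichment, and that at 151000388 to 151000837, with 8.38-fold and 9.13-fold. A pair of sites on chromosome 3 ranked in opposite order by fold in the 2 libraries. One, at 11760982 to 11761480, had folds of 9.65 and 7.15, while the other, at 50208962 to 50209415, had 7.30 and 11.9. By summit reads the order was the same in both, with 70 and 53 at the former and 88 and 94 at the latter. The remaining sites of chromosome 3 lay at 39850897 to 39851395, with folds of 7.01 and 8.87, and at 9975156 to 9975601, with 7.57 and 7.17. Chromosome 5 added one at 82271620 to 82272066, with folds of 7.18 and 10.4, and one at 115880513 to 115880954, with 6.86 and 11.2. The strongest site of chromosome 18, at 47721390 to 47721853, had 7.27-fold and 11.6-fold enrichment with 80 and 76 reads. That of chromosome 13, at 99068634 to 99069162, had 8.16-fold and 7.004-fold with 59 and 44 reads and stood 3.82 Mb from its neighbour.

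Sharing between the libraries was close to that of the whole lists. Of the 93 interior peaks of induced 1, 73 overlapped a peak of induced 2, which is 78.5% (68.8 to 86.3) against 80.3% of the whole list. Those 73 were 48.3% of the 151 interior peaks of induced 2 (40.1 to 56.6), against 49.3%. The remaining sites were 20 in induced 1 only and 78 in induced 2 only. As a share of sites, 42.7% were shared (35.2 to 50.5), against 41.1% (37.7 to 44.5) in the interior of the 17 other autosomes. By chromosome the shared sites were 14 of the 50 of chromosome 3, 22 of the 49 of chromosome 4, 23 of the 42 of chromosome 5, 4 of the 14 of chromosome 13 and 10 of the 16 of chromosome 18. Chromosome 3 had 28% of its sites shared (16.2 to 42.5) and chromosome 5 had 54.8% (38.7 to 70.2). These intervals overlap, which does not show equal shares, and the difference was not tested. Among the 17 other autosomes the share of interior sites ran from 23.5% on chromosome 14 to 53.6% on chromosome 19.

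Shared interior peaks had higher folds than unshared ones, with medians of 5.86 against 4.798 in induced 1 and 6.19 against 4.65 in induced 2. With each whole list divided by fold into 4 groups of about equal size, all 20 interior peaks in the strongest group of induced 1 were shared (83.2% to 100%), and 14 of 21 in the weakest (66.7%, 43.0 to 85.4). Over the whole list of induced 1 the shares were 99.0% and 65.5%. In induced 2 it was 34 of 43 in the strongest group (79.1%, 64.0 to 90.0) and 8 of 30 in the weakest (26.7%, 12.3 to 45.9). Over the whole list of induced 2 those shares were 88.3% and 26.5%. That left 9 interior peaks in the strongest group of induced 2 without a partner in induced 1.

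The strongest interior peak of induced 2 without a partner was on chromosome 3 from 156838324 to 156838740, at 9.91-fold with 50 reads, and ranked 87th in its list. Chromosome 4 held the next, one at 15006507 to 15006865 with 46 reads at 7.07-fold and one at 38314839 to 38315167 with 43 reads at 6.85-fold. The strongest found in induced 1 only had lower folds. Chromosome 3 held one at 48647083 to 48647381, with 51 reads at 5.99-fold, and one at 177128556 to 177128829, with 42 reads at 5.64-fold. Between these in fold was one on chromosome 5 at 78531562 to 78531857, with 44 reads at 5.84-fold. Scaled by the overall pileup ratio of shared peaks (1.23), 76 of the 78 interior pileups found in induced 2 only would exceed 28 reads, the lowest pileup called in induced 1. Over all peaks found in induced 2 only it was 640 of 678. The lowest pileup called in induced 2 was 17 reads, and all 20 interior peaks found in induced 1 only were above it when scaled. So were 162 of 162 over the whole list, an outcome fixed in advance, since 28 reads scaled likewise also exceed 17. The lowest pileup of a whole list is a loose limit, so these counts do not show what the other library should have called. The lists give no value where no peak was called, and calling also depends on the local background. A site listed once may therefore have had reads in the other library too.

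Where a site was found in both libraries, the summits nearly coincided. All 73 pairs of summits lay within 100 bp, a median of 19 bp and at most 92 bp apart. Over all 661 shared peaks the median was 23 bp, and 93.3% lay within 100 bp. Folds ranked alike across the 73 sites, with a Spearman's rho of 0.56 against 0.59 over the 661. By chromosome it was 0.72 over the 22 sites of chromosome 4, 0.63 over the 23 of chromosome 5 and 0.55 over the 14 of chromosome 3, but 0.018 over the 10 of chromosome 18 and 0 over the 4 of chromosome 13. These points share the same 2 libraries and are a description. Fold was higher in induced 1 at 31 of the 73 sites, and at 301 of the 661.

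No shared interior site differed in pileup between the libraries beyond counting error. Each pair of pileups was compared with the ratio of all shared pileups by a two-sided exact binomial test, and p-values were adjusted by Benjamini-Hochberg over the 661 shared peaks. Of the interior sites 0 of 73 passed, as did 0% of all shared peaks, and 2 of the 73 had an unadjusted p under 0.05, against 19 of the 661. The more uneven of those 2 was on chromosome 3 from 170052635 to 170052906 in induced 1, with 33 reads there and 44 in induced 2 (exact binomial p = 0.039, adjusted p = 1). Beyond the overall ratio, its induced 1 pileup was lower by 0.71 on the log2 scale. The other was the site from 95997905 on chromosome 5 described above, with 101 and 109 reads (exact binomial p = 0.044, adjusted p = 1). The pileups of a shared interior site summed to a median of 97 reads. With that many, a single site passed only beyond a 2.48-fold difference on top of the overall ratio, so smaller differences were not detectable.

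**Figure D3:**
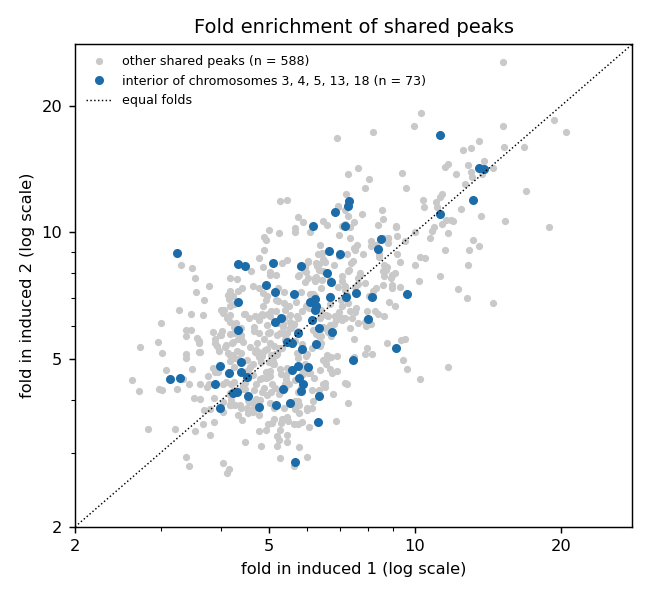
Fold enrichment in induced 1 (x axis) and induced 2 (y axis), both on log scales, for each shared peak, with the 73 interior sites of chromosomes 3, 4, 5, 13 and 18 in blue and the other shared peaks in grey. The dotted line marks equal folds. The blue points lie within the range of the grey ones and reach 16.999-fold in induced 2.

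Neighbouring interior sites lay far apart. The median distance between neighbours was 1.79 Mb (middle range, from the lower to the upper quartile, 0.524 to 4.96 Mb), against 0.770 Mb in the interior of the 17 other autosomes. By chromosome the median was 1.46 Mb on chromosome 4, 1.70 Mb on chromosome 18, 1.79 Mb on chromosome 3, 1.81 Mb on chromosome 5 and 2.73 Mb on chromosome 13. The distances depend on how many peaks a list holds. Without induced 2 the median was 3.66 Mb, and between shared sites alone it was 6.03 Mb. The corresponding medians on the 17 other autosomes were 1.498 Mb and 2.102 Mb.

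A site was called isolated when no other site of either induced library lay within 1 Mb. This held for 71 of the 171 interior sites, 41.5% (34.0 to 49.3), against 204 of 847, 24.1% (21.2 to 27.1), on the 17 other autosomes. With only shared sites counted the shares were 60.3% (48.1 to 71.5) and 54.6% (49.2 to 59.9), and their intervals overlap. The median distance to the nearest site was 812 kb, against 287 kb elsewhere. Chromosome 3 had 24 isolated sites of 50, chromosome 5 had 18 of 42, chromosome 4 had 17 of 49, and chromosomes 13 and 18 had 6 each. No test was made of the difference in spacing, since sites of the same 2 libraries are not replicates. The interiors held 1 site per 4.17 Mb here and 1 per 2.30 Mb on the 17 other autosomes. Fewer sites per length make distances longer by construction, so isolation and spacing partly restate density.

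**Figure D4:**
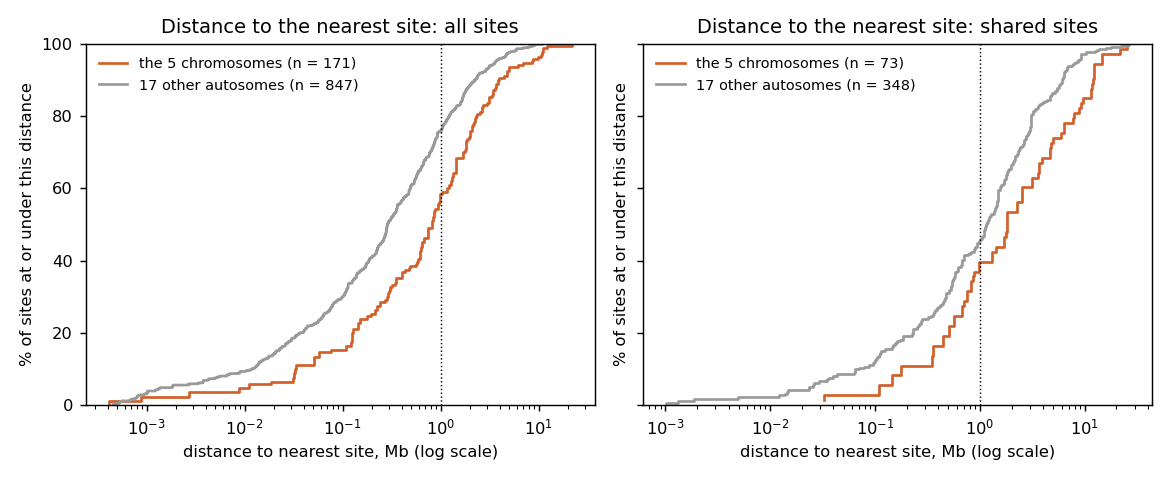
Cumulative share of sites (y axis, percent) against distance to the nearest other site (x axis, Mb, log scale), for all sites (left) and shared sites alone (right). Orange is the interior of the 5 chromosomes, grey the interior of the 17 other autosomes, and the dotted line marks 1 Mb. The orange curve lies to the right of the grey one over most of both panels, and the curves are closer at 1 Mb for shared sites, where 60.3% and 54.6% lie beyond it.

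Isolation did not go with a lower share found in both libraries. Of the 71 isolated sites, 34 were shared (47.9%, 35.9 to 60.1), 28 were in induced 2 only and 9 in induced 1 only. Of the 74 sites with a neighbour between 100 kb and 1 Mb away, 33 were shared (44.6%, 33.0 to 56.6). Of the 26 with a neighbour within 100 kb, 6 were shared (23.1%, 8.97 to 43.6), against 97 of 254 (38.2%, 32.2 to 44.5) on the other autosomes. The intervals of the 3 interior groups overlap, which does not show equal shares, and the differences were not tested. For isolated sites and those with a neighbour between 100 kb and 1 Mb away, the shares on the other autosomes were 42.2% and 42.4%. Median folds of isolated sites were 5.75 in induced 1 and 5.50 in induced 2, and those of sites with a neighbour within 100 kb were 5.52 and 4.98. Across sites, fold was nearly unrelated to the distance to the nearest site, with a Spearman's rho of 0.086 over 93 peaks of induced 1 and 0.039 over 151 of induced 2, given as a description.

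Of the 10 most isolated sites, 3 were shared and 7 were in induced 2 only. Among all interior sites 98 of 171 were unshared, 57.3%, and on the 17 other autosomes 58.9%. The most isolated was shared and ranked 219th of 823 peaks and 166th of 1338 by fold. It lay on chromosome 5 from 32173610 to 32174082, 21.8 Mb from the next site, with 61 reads (46.7 to 78.4) at 6.60-fold in induced 1 and 65 reads (50.2 to 82.8) at 8.02-fold in induced 2. The other shared ones were on chromosome 4 from 173883707 to 173884087, 9.90 Mb from the next, with 55 and 45 reads at 4.48-fold and 8.33-fold, and on chromosome 5 from 10353635 to 10354071, 8.75 Mb from the next, with 56 and 41 reads at 6.31-fold and 3.54-fold. By fold these last 2 rank differently in the libraries, the first higher in induced 2 and the second higher in induced 1. Their local backgrounds in induced 1 and induced 2 were 11.2 and 4.52 reads at the first, and 7.70 and 10.8 at the second. Their pileups were close to the overall ratio, at -0.007 and 0.15 beyond it on the log2 scale.

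Of these 10 sites, 5 were on chromosome 3, all of them in induced 2 only. They were at 105085545 to 105085866 (12.3 Mb from the next, 4.36-fold, 27 reads), 83991467 to 83991848 (11.1 Mb, 4.62-fold, 37 reads) and 143691181 to 143691447 (10.5 Mb, 3.55-fold, 25 reads). The remaining pair on this chromosome was at 31330262 to 31330556 (8.52 Mb, 4.22-fold, 24 reads) and 72870618 to 72870928 (6.93 Mb, 6.34-fold, 34 reads). The last 2 of the 10 were on chromosome 13 from 39611768 to 39612063 (11.2 Mb, 4.65-fold, 32 reads) and on chromosome 4 from 109367709 to 109368160 (10.8 Mb, 5.76-fold, 36 reads). The isolation of sites seen in 1 library rests on that library alone.

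Long stretches held no site at all. Among 166 distances between neighbours, 20 exceeded 10 Mb, and these covered 335 Mb, 47.0% of the interior, against 29.8% on the 17 other autosomes. Of the 20, 2 spanned a centromere, where the assembly holds no unique sequence. On the 17 other autosomes 36 of 830 distances exceeded 10 Mb, 27 of them without a centromere, and the longest was 32.7 Mb. The longest of the 20 was on chromosome 5 between the summits at 32173828 and 68788230, 36.6 Mb across the centromere. Its left flank was the most isolated site described above, and its right flank was a peak of induced 2 only (4.66-fold, 24 reads) with a shared site 410 bp further on. The next was on chromosome 13 from 39611860 to 73664498, 34.1 Mb without a centromere, between a peak of induced 2 only (4.65-fold) and a shared site (5.16-fold and 6.12-fold).

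On the short arm of chromosome 5 a stretch of 21.8 Mb ran from 10353888 to 32173828, with a shared site at each side, and it ended where the 36.6 Mb stretch began. On chromosome 3 the longest ran 21.1 Mb from 83991630 to 105085674 across the centromere, between peaks of induced 2 only (4.62-fold and 4.36-fold). Chromosome 4 had stretches of 19.8 Mb from 154126495 to 173883903, and of 19.2 Mb from 90170210 to 109367907. The first lay between shared sites, with folds of 6.64 and 9.02 on the left and 4.48 and 8.33 on the right, and the other lay between peaks of induced 2 only. Chromosome 13 had another of 18.9 Mb from 76334742 to 95248641, and chromosome 5 another of 17.8 Mb from 98106133 to 115880754. The sites beside these 8 stretches were 15, of which 6 were shared and 9 in induced 2 only. Of all 171 interior sites, 73 were shared (42.7%).

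Counting shared sites alone lengthened the longest stretches. The longest was then 55.8 Mb on chromosome 3, from 65939271 to 121741058, across the centromere, with 5 unshared sites inside it. On the 17 other autosomes the longest stretch between shared sites was 57.96 Mb. The next were 46.1 Mb on chromosome 13, from 27546413 to 73664498, with 4 inside, and 36.6 Mb on chromosome 5, with 1 inside.

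**Figure D5:**
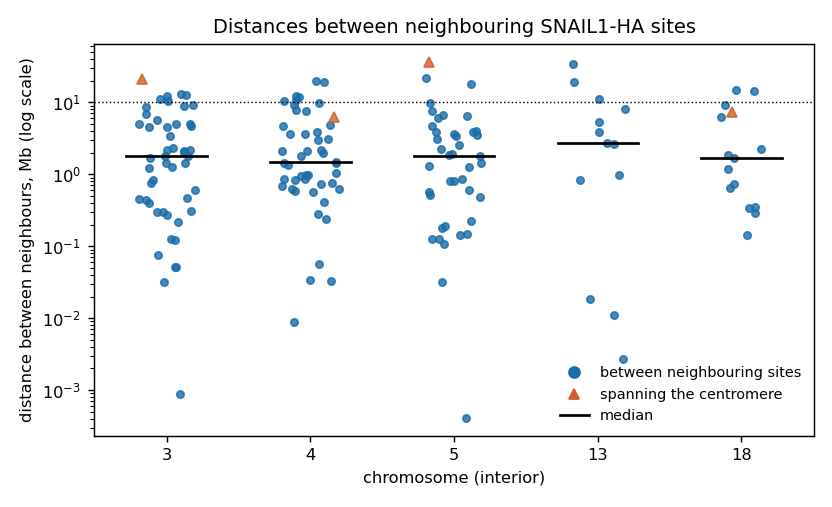
Distance between neighbouring sites (y axis, Mb, log scale) in the interior of each chromosome (x axis). Circles are distances within an arm, triangles span the centromere, black bars are medians and the dotted line marks 10 Mb. Distances run from 410 bp to 36.6 Mb, both on chromosome 5, and 20 lie above the dotted line.

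In all, 6 distances were at most 20 kb, and they joined 11 sites. This is 6.43% of the interior sites, against 119 of 847, 14.05%, on the 17 other autosomes. Of the 11 sites 2 were shared, against 42.7% of all interior sites. The closest were 410 bp apart on chromosome 5, a peak of induced 2 only from 68788071 to 68788348 (4.66-fold) beside a shared site from 68788449 to 68788840 (4.32-fold and 8.41-fold). On chromosome 3 a peak of induced 1 only from 47021269 to 47021552 (3.51-fold, 33 reads) lay 870 bp from a peak of induced 2 only from 47022205 to 47022454 (3.82-fold, 27 reads), so these do not overlap and count as 2 sites. On chromosome 13, peaks at 22245119 to 22245411 (6.02-fold) and 22247812 to 22248115 (6.38-fold), both of induced 2 only, lay 2691 bp apart. Near 27.5 Mb of the same chromosome, 3 sites followed each other at 11027 bp and 18546 bp, the first shared (7.45-fold and 4.98-fold), the second in induced 2 only (4.09-fold) and the last in induced 1 only (3.63-fold). On chromosome 4, peaks of 1 library each at 69590143 to 69590393 (4.09-fold in induced 2) and 69598925 to 69599199 (5.52-fold in induced 1) lay 8832 bp apart.

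Shared sites followed one another over long spans in some regions, which were singled out after their values had been seen and were not tested. On chromosome 5, 8 sites in a row from 115880754 to 133428789, over 17.5 Mb, were all shared. Induced 1 gave them folds from 4.39 up to 11.3 and induced 2 from 2.86 up to 16.999. On chromosome 4, 7 in a row from 128983336 to 144105880, over 15.1 Mb, were all shared, with folds from 3.29 up to 8.50 and from 3.82 up to 9.65. The longest row of unshared sites was on chromosome 3, with 11 from 42055047 to 49027855, over 6.97 Mb, of which 8 were in induced 2 only and 3 in induced 1 only. Their folds ran from 3.51 up to 5.99 in induced 1 and from 3.82 up to 6.78 in induced 2.

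Nearly all interior peaks were in the lists of induced cells. Induced 1 and 2 held 93 and 151, a mean of 122.0 ± 41.0 (SD, n = 2), and uninduced 1 and 2 held 1 each. Over the whole genome the uninduced lists were also short, with 5 and 11 peaks against the 823 and 1338 of induced cells. The 2 conditions did not overlap, and their means differed by 121. A two-sided exact permutation test gave p = 0.333, which is the smallest value that 2 and 2 libraries can give. The set was defined on the induced lists, and the whole lists differed in the same direction. The test therefore shows nothing particular to these chromosomes. Of all peaks in the induced lists, 0.555% overlapped an uninduced peak, and of the interior peaks 1 did.

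That site was on chromosome 3, where uninduced 2 had a peak from 182833997 to 182834246 at 5.11-fold with 35 reads (24.4 to 48.7). Induced 2 had 5.52-fold enrichment there with 30 reads (20.2 to 42.8), and its summit lay 0.018 kb away. Induced 1 listed no peak there, and its nearest summit was 1443 kb away. The other uninduced peak was on chromosome 4 from 167501205 to 167501539 in uninduced 1, at 3.16-fold with 55 reads (41.4 to 71.6). It lay inside the 19.8 Mb stretch without induced sites, 6383 kb from the nearest induced summit. Its background of 16.7 reads was a larger number than that of every interior peak of the induced lists. The depth of the uninduced libraries is not known, so read numbers here are not on 1 scale across libraries.

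The 5 Mb limit left out 40 of the 133 peaks of induced 1 on these chromosomes (30.1%) and 66 of the 217 of induced 2 (30.4%), in 50 Mb that made up 6.55% of their length. On the 17 other autosomes it left out 35.5% and 32.7%, in 8.03% of the length. The first 5 Mb of chromosome 4 held 15 peaks of induced 1 and 21 of induced 2, and those of chromosome 5 held 9 and 14, while chromosomes 3, 13 and 18 had none there. On chromosome 13 these 5 Mb lie in the short arm, largely without assembled unique sequence, so peaks could hardly be called there. In the last 5 Mb, chromosome 3 held 3 and 6, chromosome 4 held 0 and 3, chromosome 5 held 3 and 5, chromosome 13 held 6 and 13, and chromosome 18 held 4 and 4. Closest inside the limit was a peak of induced 2 on chromosome 3, 5.02 Mb from the start (4.89-fold, 26 reads). Closest outside it was a peak of induced 1 on chromosome 13, 4.93 Mb from the end (4.93-fold, 40 reads).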

How the data were processed

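ChIP-seq with an anti-HA antibody was analysed in 4 libraries, 2 induced and 2 uninduced, grouped by title. Per the submitters' processing notes, the tools were MACS2 2.1.1.20160309, BWA 0.7.15 and Trimmomatic 0.36, and the build was hg19. Not given in the sources used here are the peak threshold, the handling of duplicates and the control used. Each library has a deposited narrowPeak list, in which the authors give each peak's fold enrichment (a ratio), −log10 p, −log10 q and a score. Peaks were thus called per sample. Read totals are not in the lists, so depth is unknown from them directly.

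Fold and p were solved together for whole summit pileups. For induced 1 this took a scaling down by 1.40, inferred as the factor that makes its pileups whole. The pileups matched the listed −log10 p within 0.0005 (0.002 for induced 1) at 823 of 823 and 1338 of 1338 induced peaks. The lowest background at any peak, taken as the genome-wide one, was 1.45 times as high in induced 1 as in induced 2. It reflects relative depth only if reads were handled alike in both libraries, which is not known. Recovery and the pileup test were tested on simulated data. An overlap of 1 bp or more made peaks shared, computed in Python 3.11.15 with scipy 1.17.1 and checked with bedtools 2.31.1. A site's position is the mean of its summits. Shares have exact (Clopper-Pearson) 95% intervals and numbers exact Poisson ones. hg19 chromosome lengths and centromere positions were entered by hand from knowledge of the build and not compared with an assembly file, and arm values and centromere calls rest on them.

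Named sites were the 15 shared ones whose percentile of fold, averaged over both lists, was highest, the 10 most isolated, those beside the 8 longest distances, the 3 strongest unshared peaks per list, pairs at most 20 kb apart, and all overlapping uninduced peaks. The members and these rules were chosen with earlier results of these data known. Alternatives tried were the overlap rule, the 5 Mb limit, a fold of at least 5, the isolation distance, the pileup ratio, the replicate block and leaving out each library. The planned gene, sequence and gene-list steps were not run, since no hg19 reference was used.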

Additional observations from a re-analysis of the deposited data

How the results depend on the processing

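Keeping peaks of at least 5-fold lowered the difference in interior peak number from 121 to 69.5 and the shared interior peaks from 73 to 41, which follows from the filter since the median folds lie near 5. The difference ranged from 92 to 150 with 1 library left out. With a replicate block it stayed at 121 (exact sign-flip p = 0.5, and no smaller value is possible with 2 pairs). No label ties equal replicate numbers to a common culture or batch, and peak lists alone could not show pairing. Spacing moved with the number of sites. The median distance between neighbours, 1.79 Mb, was 6.03 Mb for shared sites only and 3.87 Mb at a fold of at least 5, and 1.85 to 3.66 Mb with 1 induced library left out. The longest distance, 36.6 Mb, was 55.8 Mb for shared sites only, 48.9 Mb at a fold of at least 5, and 36.6 to 51.4 Mb with 1 induced library left out. The isolated share, 41.5%, was 60.3% for shared sites only, 61.6% at a fold of at least 5, 61.4% with an isolation distance of 500 kb, 25.1% with 2 Mb, and 43.7% to 58.1% with 1 induced library left out. Fewer sites make distances longer by construction. The median fold was 4.798 for peaks found in induced 1 only and 6.19 for shared peaks of induced 2. Leaving out chromosome 3, an alternative chosen after seeing the data, reversed the difference in peaks per 100 genes from the 17 other autosomes. In induced 1 it was -0.38 with all 5 chromosomes and 0.51 without chromosome 3, and for induced 2 these values were -0.61 and 0.18. Limits of 2 or 10 Mb from the ends, the overlap rules and the pileup ratio changed no result by more than the spread between libraries or 1.5 times.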
